A study of Mus musculus with 9 samples.

Results

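The genes of the MHC class II pathway were followed in regenerating mouse liver through 9 genes: H2-Ab1, H2-Eb1, H2-Aa, Cd74, H2-DMa, H2-DMb1, H2-DMb2, Ciita and Ctss. Every probe whose platform symbol is 1 of these 9 names was taken, which gave 16 probes of the 45281 on the array, and 9 of the 19057 genes that the array reads with a single symbol. The genes had been picked because some of them stood among the largest differences between the groups of these same animals. Their differences between the groups are therefore a description, and no p-value is given for them.

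MHC class II molecules are pairs of an α and a β chain that carry peptides from endosomes to the surface of antigen-presenting cells, where CD4 T cells read them. The invariant chain, encoded by Cd74, holds the groove shut until cathepsin S (Ctss) trims it, and the H2-DM heterodimer then swaps the last fragment for a peptide, while the coactivator encoded by Ciita switches the genes on. In liver the pathway is known mainly from dendritic cells, Kupffer cells, B cells and sinusoidal endothelium. Mice of the C57BL/6 strain lack transcription of H2-Ea, so the β chain encoded by H2-Eb1 has no α partner there.

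Whole livers of 9 C57BL/6 mice were snap-frozen 12 h after partial hepatectomy, in which liver lobes are cut away so that the remnant regrows, and total RNA was read on Illumina bead arrays, 1 array per liver. The Control group held 4 wild-type mice, and the labels used here do not say what they received before surgery. The Etanercept group held 5 mice that lacked the lymphotoxin β receptor (LTRβ-/- in the labels) and that had been given etanercept, a soluble decoy made of TNF receptor and antibody parts that captures TNF and lymphotoxin α, 24 h before surgery. Genotype and drug changed together and no unoperated liver was measured, so a difference belongs to the combination. Replicate numbers only name the animals.

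Averaged over all probes, 8 arrays had signals of 336 to 438 intensity units, whereas Etanercept 4 had 143, and also 9493 probes detected against 13926 to 16186 on the others. The number of arrays limits the precision, with a median standard error of a group difference of 0.307 on the log2 scale. The targeted gene, Ltbr, was read by 1 probe at log2 6.41 to 6.97 in Control and 4.87 to 6.77 in Etanercept livers. It was detected in 4 of 4 and 4 of 5 of them. Whether that probe lies in the deleted part is not known, so it checks no label.

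Of the 16 probes, 7 were detected on all 9 arrays, where detected means a detection p under 0.05, the share of negative control beads at least as bright. These were 2 of H2-Ab1, 2 of Cd74 and the single probes of H2-Eb1, H2-Aa and Ctss. A probe was compared between groups when it was detected on at least 4 arrays, and 12 probes of 7 genes passed. Both probes of Ciita and both of H2-DMb2 did not pass, and 3 of these 4 were detected on no array. The probes of H2-DMa, the dimmer Cd74 probe and the dimmest H2-Ab1 probe passed with more detected arrays in the Etanercept group than in Control, so that filter favours a higher value there.

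**Figure D1:**
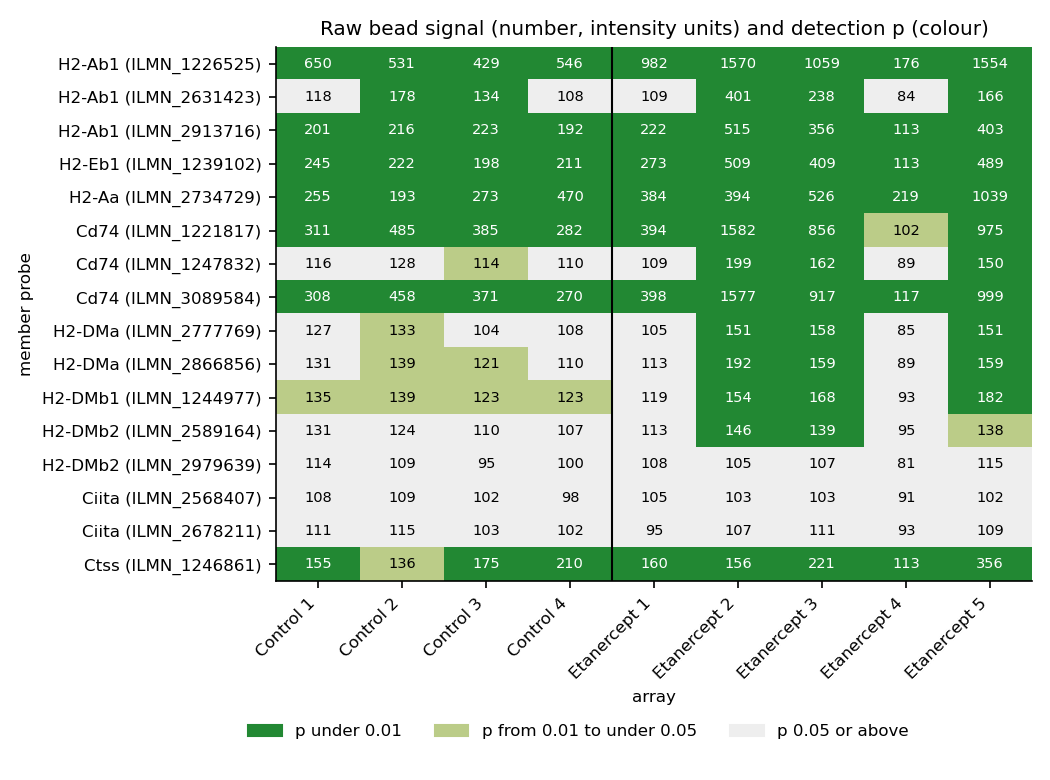
Raw bead signal in intensity units (numbers) and detection p (colour) for the 16 probes (rows) on the 9 arrays (columns). Signals are comparable along a row, not between rows, and Etanercept 4 reads low throughout, with 176 units for the brightest H2-Ab1 probe against 982 to 1570 in the other Etanercept livers.

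Class II promoters are known to share an X box, bound by the RFX complex, an adjoining cyclic AMP response element and a Y box, bound by NF-Y, on which the Ciita protein assembles. RefSeq promoter windows of GRCm38.p6, from 250 bases before to 50 bases after the transcript start, were matched by symbol for 6 of the 9 genes (7 windows, 2 of them H2-DMa). No window is shown here for H2-Ab1, Cd74 and Ciita. The letters searched on both strands were AACNGATG (the core of the X box, found in 2.32% of 32851 windows), TGACGTCA (the cyclic AMP response element, 1.79%), TGATTGG (the Y box, 7.82%) and GAAA, any 2 bases and GAAA again (an interferon response element, 3.44%), none of which overlaps another in these windows. These letters were picked after the windows had been read. The 4 windows printed here show the paired elements of an α chain, a β chain and a DM gene, and the different layout of Ctss, with matches in capitals.
H2-Eb1: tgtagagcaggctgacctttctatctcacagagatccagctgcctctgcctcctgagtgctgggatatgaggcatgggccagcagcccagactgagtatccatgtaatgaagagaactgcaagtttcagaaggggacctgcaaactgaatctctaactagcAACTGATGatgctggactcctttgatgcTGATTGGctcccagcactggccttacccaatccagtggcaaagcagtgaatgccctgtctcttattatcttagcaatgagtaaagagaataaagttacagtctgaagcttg
H2-Aa: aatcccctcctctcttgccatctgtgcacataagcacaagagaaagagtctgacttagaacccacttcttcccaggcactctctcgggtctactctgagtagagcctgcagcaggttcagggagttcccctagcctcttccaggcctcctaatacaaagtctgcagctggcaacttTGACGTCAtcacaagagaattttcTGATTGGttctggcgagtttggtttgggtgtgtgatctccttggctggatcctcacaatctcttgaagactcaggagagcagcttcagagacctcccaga
H2-DMb1: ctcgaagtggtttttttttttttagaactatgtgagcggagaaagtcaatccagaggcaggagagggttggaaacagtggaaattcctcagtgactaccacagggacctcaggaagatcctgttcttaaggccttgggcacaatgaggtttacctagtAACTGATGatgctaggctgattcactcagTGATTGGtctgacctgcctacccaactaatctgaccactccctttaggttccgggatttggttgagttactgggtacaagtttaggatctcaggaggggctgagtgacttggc
Ctss: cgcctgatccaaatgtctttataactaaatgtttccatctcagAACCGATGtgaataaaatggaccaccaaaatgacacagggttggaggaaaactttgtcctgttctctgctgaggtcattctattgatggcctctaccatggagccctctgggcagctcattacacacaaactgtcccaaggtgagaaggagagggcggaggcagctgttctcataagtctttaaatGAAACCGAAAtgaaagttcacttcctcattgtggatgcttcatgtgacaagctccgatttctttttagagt

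Counted from the transcript start, the H2-Eb1 window (chr17:34305617-34305916, plus strand) held the X box core from -89 to -82 and the Y box from -61 to -55, with 20 bases between them. The H2-DMb1 window (chr17:34152941-34153240, plus strand) had the same order with 21 bases between, and so did that of its neighbour and near copy H2-DMb2, where the X box core began at -121. In the H2-Aa window (chr17:34287774-34288073, minus strand) the cyclic AMP response element began at -74 and the Y box at -50, with 16 bases between. An X box core with a Y box occurred in 0.186% of all windows, and the response element with a Y box in 0.152%. The Ctss window (chr3:95526536-95526835, plus strand) held the interferon response element from -21 to -12 and an X box core at -207, with no Y box letters. The 2 H2-DMa windows (chr17:34122582-34122881 and chr17:34125268-34125567, plus strand) held none of the 4 motifs. Both lie inside the listed span of the gene, which begins at 34119693, so the bases before that start were not searched. A match of letters is a description of the window and shows no binding.

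H2-Ab1 (Entrez gene 14961, chromosome 17, 34263227 to 34269418), the β chain of the I-A molecule, was read by 3 probes. Its brightest probe, ILMN_1226525, had log2 signals of 8.81, 8.64, 8.54 and 8.92 in Control 1 to 4 and of 9.96, 10.44, 9.54, 9.48 and 10.05 in Etanercept 1 to 5. All 5 Etanercept livers lay above all 4 Control livers. For the dim array Etanercept 4 this rests on the normalization, since its raw signal of 176 intensity units lay below the Control range of 429 to 650. With median scaling in place of quantile normalization, 0 class II genes were free of overlap. The means were 8.73 ± 0.17 (SD, n = 4) and 9.90 ± 0.40 (SD, n = 5), a difference of 1.17 ± 0.25 (SE), or 2.25-fold.

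The H2-Ab1 probe ILMN_2913716 gave the same order of the groups. Its values were 6.57, 6.73, 7.19 and 6.93 in Control and 7.42, 8.59, 7.58, 7.87 and 7.76 in Etanercept livers, a difference of 0.99 ± 0.27 (SE). The groups did not overlap here either. The H2-Ab1 probe ILMN_2631423 behaved differently: it was detected on 2 of 4 Control and 3 of 5 Etanercept arrays, with detection p up to 0.263 and 0.818. Its values ran from 4.56 to 6.18 in Control and from 4.36 to 8.10 in Etanercept, so that the groups overlapped widely and the difference of 0.64 ± 0.71 (SE) was within its error, with 0.09 left without Etanercept 2 and 1.02 without Etanercept 4. Raw signals of the brightest probe were 429 to 650 intensity units in Control and 982 to 1570 in Etanercept livers other than Etanercept 4, which read 176.

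H2-Eb1 (Entrez gene 14969, chromosome 17, 34305867 to 34316674), the β chain of the I-E molecule, had 1 probe, detected on all 9 arrays with a detection p of at most 0.00427. Its log2 signals were 7.05, 6.80, 6.89 and 7.14 in Control 1 to 4 and 7.86, 8.57, 7.84, 7.93 and 8.11 in Etanercept 1 to 5. The groups did not overlap, and the 4 Control livers lay close together. The difference was 1.09 ± 0.23 (SE), or 2.13-fold, between means of 6.97 ± 0.15 (SD, n = 4) and 8.06 ± 0.30 (SD, n = 5).

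H2-Aa (Entrez gene 14960, chromosome 17, 34282744 to 34287823), the α chain that pairs with the H2-Ab1 product, was read by 1 probe detected on every array. Its values were 7.14, 6.42, 7.65 and 8.70 in Control and 8.49, 8.05, 8.31, 9.95 and 9.39 in Etanercept livers. The groups overlapped, because Control 4 exceeded Etanercept 1, 2 and 3, and the highest value came from the dim array Etanercept 4. The means were 7.48 ± 0.96 (SD, n = 4) and 8.84 ± 0.80 (SD, n = 5), which differed by 1.36 ± 0.50 (SE) or 2.57-fold, and by 1.08 without Etanercept 4. The Control livers were spread more widely for this gene than for the brightest H2-Ab1 probe, with an SD of 0.96 against 0.17.

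Cd74 (Entrez gene 16149, chromosome 18, 60803849 to 60812652), the invariant chain, had 3 probes. The probe ILMN_3089584 read 7.53, 8.36, 8.26 and 7.68 in Control and 8.55, 10.45, 9.29, 8.09 and 9.32 in Etanercept livers. Of the Etanercept livers, 4 of 5 lay above every Control, and Etanercept 4, at 8.09, lay within the Control range. The difference was 1.18 ± 0.43 (SE), or 2.27-fold, and 1.45 without Etanercept 4.

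The Cd74 probe ILMN_1221817 gave the same picture with a wider spread, since Etanercept 4 stood at 6.89, below the Control range of 7.55 to 8.47, and the difference of 0.83 ± 0.58 (SE) became 1.33 without that array. It was 0.44 without Etanercept 2 and 0.35 in the authors' values. With surgery day as a block it was 0.27, which rests on the liver pairs of days 1, 2 and 5 alone. The Cd74 probe ILMN_1247832 was close to background, detected on 1 of 4 Control and 3 of 5 Etanercept arrays, and differed by 0.58 ± 0.38 (SE), or 0.30 without Etanercept 2. Etanercept 2 was the highest liver on all 3 probes, at raw signals of 1582, 199 and 1577 intensity units against Control maxima of 485, 128 and 458.

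H2-DMa and H2-DMb1 encode the chains of the peptide exchanger DM. The H2-DMa probes (Entrez gene 14998, chromosome 17, 34119693 to 34139101) were near background. ILMN_2866856 read 5.01, 5.30, 5.22 and 4.69 in Control and 4.71, 6.38, 5.72, 4.59 and 5.60 in Etanercept livers, a difference of 0.34 ± 0.36 (SE). ILMN_2777769 ran from 4.58 to 5.12 in Control and from 4.39 to 5.70 in Etanercept, a difference of 0.32 ± 0.32 (SE). On both probes Etanercept 2, 3 and 5 lay above every Control while Etanercept 1 and 4 were not detected, so the groups overlapped and neither difference exceeded its error. With surgery day as a replicate block, which rests on the liver pairs of days 1, 2 and 5 alone, the differences were 0.01 and -0.01. Without Etanercept 2 they were 0.10 and 0.20.

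H2-DMb1 (Entrez gene 14999, chromosome 17, 34153191 to 34160229) was detected in all 4 Control livers with a detection p from 0.0139 to 0.0353 and in Etanercept 2, 3 and 5. Its values were 5.13, 5.30, 5.29 and 5.32 in Control and 5.02, 5.66, 5.85, 5.16 and 6.00 in Etanercept. Etanercept 1 lay below the Control range, Etanercept 4 within it and the other Etanercept livers above it, and the difference was 0.28 ± 0.25 (SE), or 0.16 without Etanercept 5. H2-DMb2 (Entrez gene 15000, chromosome 17, 34143229 to 34151553), a near copy of H2-DMb1 whose transcripts a probe may not tell apart, had a probe, ILMN_2589164, that was detected in 0 of 4 Control and 3 of 5 Etanercept livers. The detected livers read 5.47, 5.28 and 5.10 (Etanercept 2, 3 and 5), the undetected Etanercept 1 and 4 read 4.72 and 5.65, and the Control values, which are only bounds, ran from 4.60 to 4.96. No fold is given for it, and its other probe was detected nowhere, with detection p from 0.28 up.

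Ciita (Entrez gene 12265, chromosome 16, 10480014 to 10531064), the coactivator, was not detected on any array by either probe, with the lowest detection p at 0.198 and 0.0994. Raw signals were 98.4 to 109 intensity units for ILMN_2568407 and 94.6 to 115 for ILMN_2678211 once the dim array is left out. The arrays therefore hold no measure of Ciita at this signal, which does not show that the gene was silent. Ctss (Entrez gene 13040, chromosome 3, 95526786 to 95556405), cathepsin S, was detected on all 9 arrays, with values of 5.77, 5.21, 6.55 and 7.13 in Control and 6.52, 5.72, 6.56, 7.91 and 7.52 in Etanercept livers. The groups overlapped, only Etanercept 4 and 5 lay above all Controls, and the difference of 0.68 ± 0.49 (SE), or 1.61-fold, was 0.42 without Etanercept 4 and 0.37 without Control 2.

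**Figure D2:**
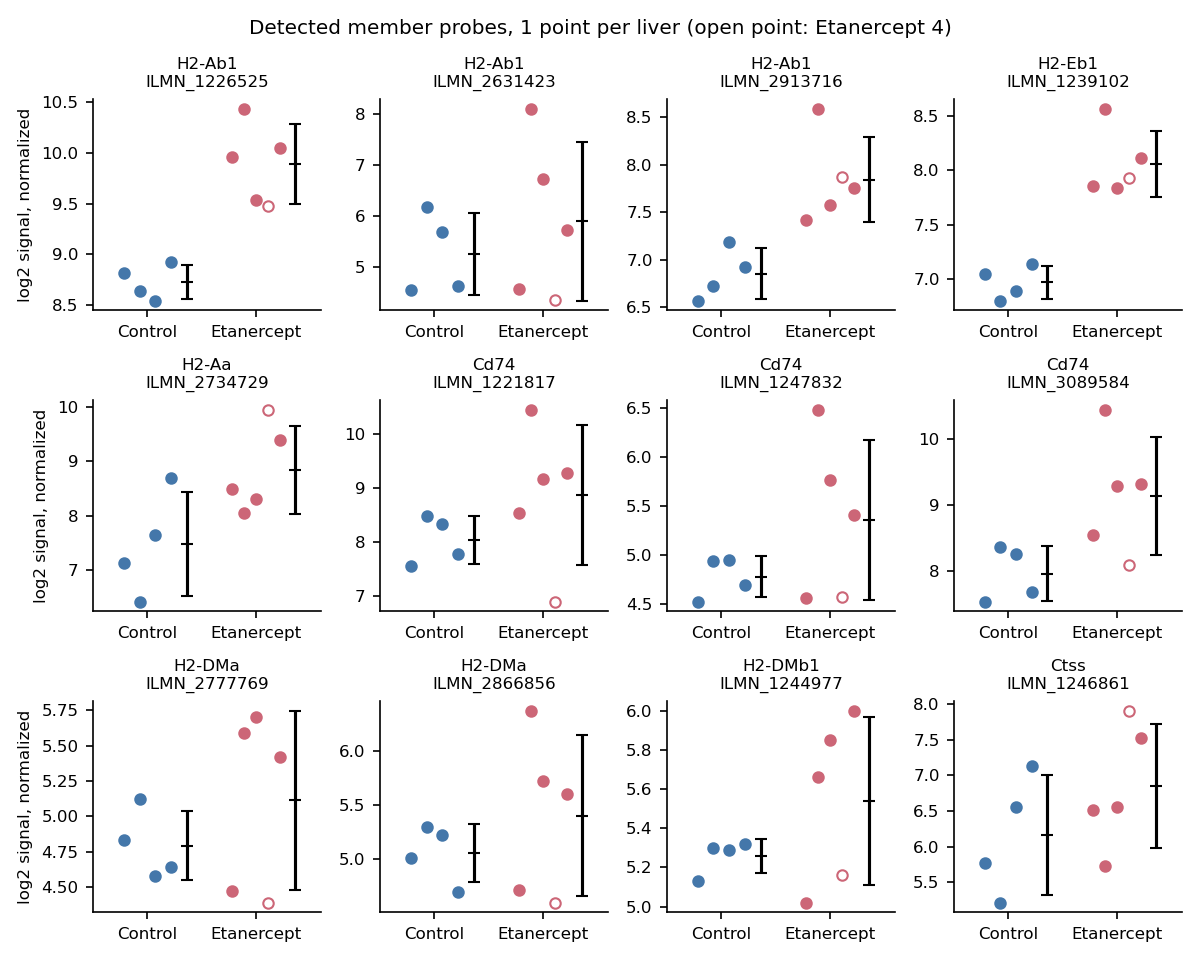
Normalized log2 signal of the 12 compared probes, 1 point per liver, with the mean and SD of each group as a bar beside the points; the open point is the dim array Etanercept 4. The groups are apart for ILMN_1226525 and ILMN_2913716 of H2-Ab1 and for H2-Eb1, and overlap on the other 9 panels.

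Across the 12 compared probes the mean was higher in the Etanercept group for each, and on 3 of 12, the brighter H2-Ab1 probes and H2-Eb1, the groups did not overlap. Over all 15687 probes compared, 0.28% had every Etanercept array above every Control array. With the brightest probe of each gene, 2 of the 7 genes had no overlap, against 0.329% of 11559 features, and 7 of 7 were higher, against 47.6%. The median difference of the 7 genes was 1.09 (0.28 to 1.36) and that of all features was -0.02. Because the genes were chosen on this contrast, nothing is read from these shares.

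In the limma fit over all 11559 features, 1 passed a Benjamini-Hochberg adjusted p under 0.05 (0.00865%), a gene outside the 9. With median scaling in place of quantile normalization all features shifted by -0.26 in the median and the class II genes stood at 0.71, which is 0.97 above it, and no class II gene was then free of overlap. In the authors' normalized values, where 1071 features passed the threshold, the class II median was 0.61. How those values were made is not described, but surgery day had been taken out of them: in a fit of group and day, the day coefficients averaged 0.00 to 0.09 in absolute size there and 0.35 to 0.56 in the values used here. The fit that gave the 1071 does not count the day terms already removed. Its p-values are therefore too small, and nothing is read from that count.

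The Etanercept livers did not contribute alike. Etanercept 5 lay above every Control on 11 of the 12 probes, Etanercept 2 and Etanercept 3 on 10 each, and Etanercept 1 and Etanercept 4 on 5 each. Etanercept 2 was the highest of the 9 livers on 8 probes, and the dim array Etanercept 4 was the lowest of its group on 6. Etanercept 1, whose mean signal was 336, lay within or below the Control range on the H2-DM probes, on H2-Aa, on Ctss and on the dimmest probes of H2-Ab1 and Cd74.

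**Figure D3:**
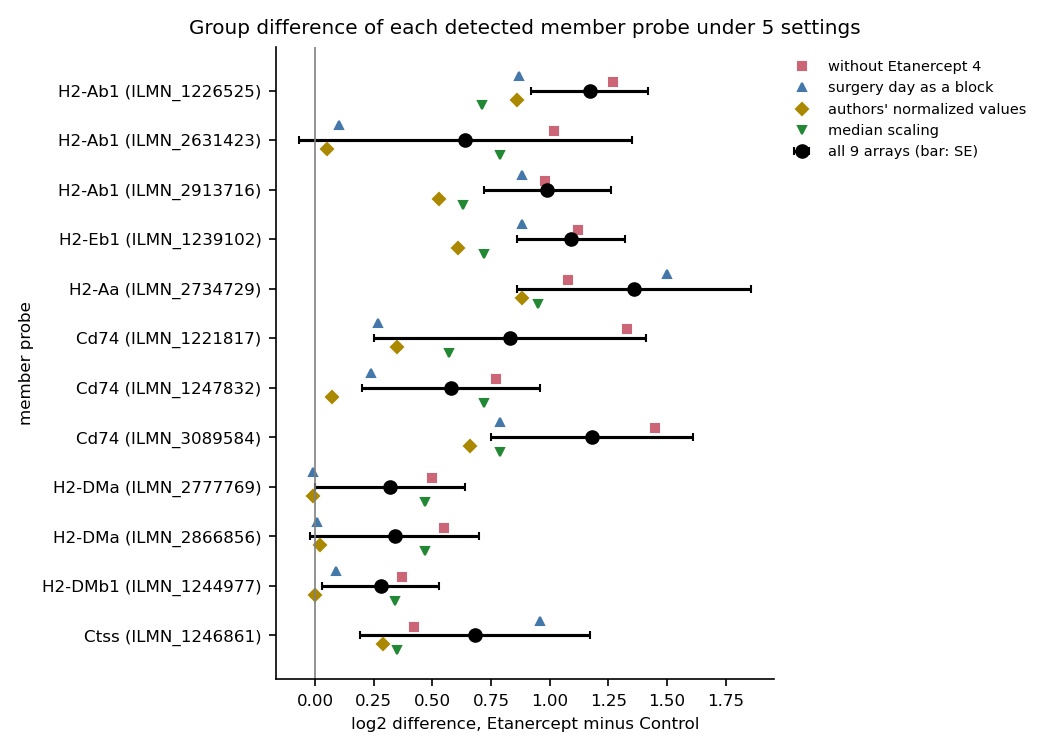
Log2 difference, Etanercept minus Control, for the 12 compared probes over all 9 arrays (black, bar: SE) and under 4 other settings. H2-Ab1 (ILMN_1226525), H2-Eb1, H2-Aa and Cd74 (ILMN_3089584) stay above 0.5 under each of these settings, and the H2-DMa and H2-DMb1 probes lie between -0.01 and 0.02 with the authors' values.

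By the array codes in the sample titles, the arrays sat on 2 slides, which are numbered here. They came from 5 surgery days, as the labels number them. All 7 genes were higher in Etanercept livers on each slide, with a median of 1.29 on slide 1 (0.13 to 1.56) and 0.93 on slide 2 (0.34 to 1.04). Surgery days 1, 2 and 5 each set 1 Control against 1 Etanercept liver, and days 3 and 4 held 1 group only. H2-Ab1 (brightest probe) differed by 1.04, 0.84 and 0.73 on days 1, 2 and 5 and H2-Eb1 by 0.72, 1.13 and 0.79. The other genes did not keep 1 sign: on day 1 H2-Aa stood at -0.21 and Ctss at -0.61, and on day 2, whose Etanercept array is the dim one, Cd74 (ILMN_3089584) stood at -0.27 and H2-DMa (ILMN_2866856) at -0.71. The same dim array gave the largest differences within a day, at 3.53 for H2-Aa and 2.7 for Ctss. On day 5 all 7 were higher, from 0.71 to 1.76.

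Whether the class II genes varied together from liver to liver was examined apart from the group difference, on deviations from each group's mean over the 9 arrays. The pairs of H2-Ab1 with the 6 others were run first and none passed after adjustment, and all 21 pairs were then run. By an exact permutation of arrays within groups (2880 orders, two-sided), 2 of the 21 pairs passed an adjusted p under 0.05. H2-Aa and Ctss had Pearson r of 0.97 (p = 0.000694, adjusted 0.0146) and Spearman rho of 0.91 (exact p = 0.00104, adjusted 0.0219). Cd74 and H2-DMa had r of 0.96 (exact p = 0.00208, adjusted 0.0219) and rho of 0.90 (exact p = 0.0059, adjusted 0.062), by an H2-DMa probe that was detected on 5 of 9 arrays. With cyclic loess this r was 0.87 (exact p = 0.0177, unadjusted), and with the other probes of both genes it ran from 0.77 (exact p = 0.0292) to 0.97 (exact p = 0.00451).

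The relations stayed high without the 2 farthest livers, at 0.96 for H2-Aa with Ctss (exact p = 0.0139) and 0.87 for Cd74 with H2-DMa (exact p = 0.0417). Without Etanercept 4 they were 0.96 and 0.93, and 0 of 21 pairs passed after adjustment (smallest adjusted exact p = 0.0729). A slide holds too few arrays for a value of its own. Other features followed these genes more closely: of 11559, Ctss ranked 7 among those nearest to H2-Aa and H2-Aa ranked 47 among those nearest to Ctss, while H2-DMa ranked 34 for Cd74 and Cd74 ranked 59 for H2-DMa.

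The chains of different class II molecules, H2-Ab1 and H2-Eb1, had r of 0.84 (exact p = 0.00937, adjusted 0.0656) and rho of 0.79 (exact p = 0.0312, adjusted 0.219), which did not pass. Without the 2 farthest livers r was 0.75 (exact p = 0.0903), and without Etanercept 2 it was 0.63. Other processing gave 0.98 with median scaling (exact p = 0.000347, unadjusted) and 0.97 on raw log2 signals (exact p = 0.00104, unadjusted). In raw signals Etanercept 4 read 113 intensity units for H2-Eb1 against 273 to 509 in the other Etanercept livers, and it was likewise dim for H2-Ab1. Neither setting was run without that array, so these values show no closer relation. The authors' values gave 0.92. Surgery day had been taken out of them, so their arrays cannot be swapped freely within a group and no p-value is given. The dimmer H2-Ab1 probes gave 0.75 and 0.47. The partners H2-Ab1 and H2-Aa, which form 1 molecule, had r of -0.19 (exact p = 0.633, adjusted 0.836) and rho of -0.01, and this r turned to 0.40 in the authors' values and to 0.54 with median scaling. Over the 21 pairs r ran from -0.62 to 0.97, and 12 were positive.

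The arrays also varied along a general axis. The main axis of within-group variation, computed over all features other than the class II genes, held 54.2% of the variance, ran with the log2 mean signal of the arrays at r = 0.90, and had an absolute r above 0.6 with 57.9% of features. Cd74, H2-DMa and H2-DMb1 ran with it at r of 0.86, 0.87 and 0.69, and H2-Aa and Ctss against it at -0.69 and -0.65. H2-Ab1 and H2-Eb1 were weakly related to it, at 0.42 and 0.27. Without Etanercept 4 the axis held 38.2%, and r was 0.76 for Cd74, 0.78 for H2-DMa, 0.65 for H2-DMb1, -0.42 for H2-Aa, -0.34 for Ctss, 0.00 for H2-Eb1 and -0.29, with the sign turned, for H2-Ab1. The part of this axis in the pair relations was not tested.

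**Figure D4:**
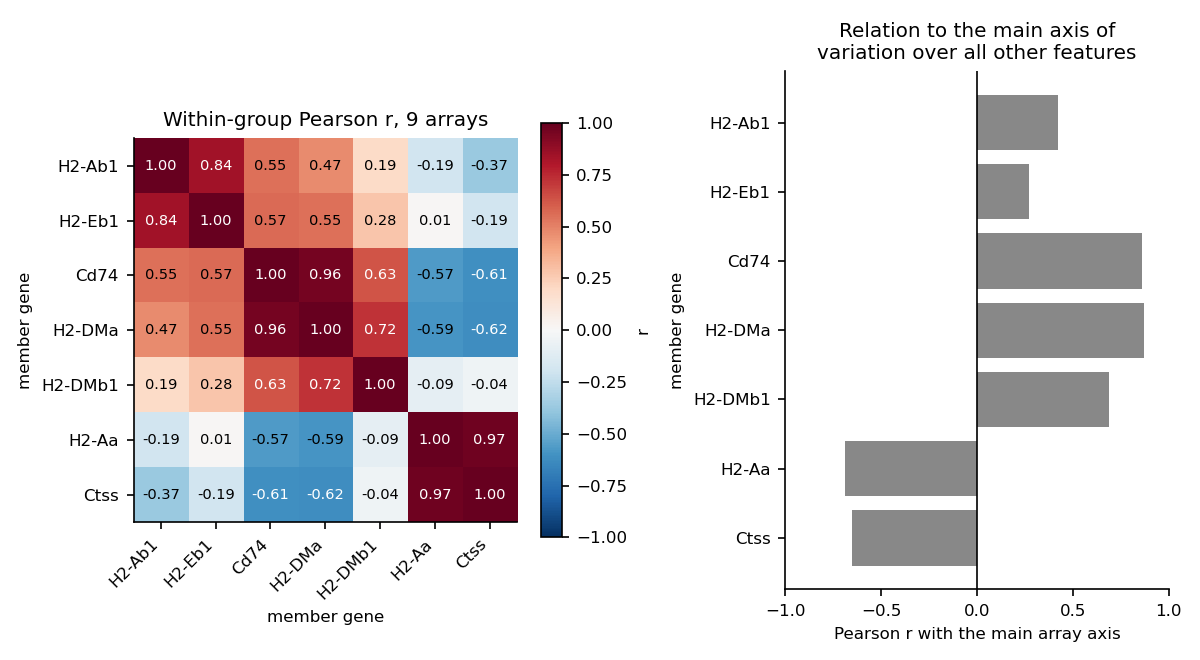
Left, Pearson r of deviations from group means for each pair of the 7 compared genes over 9 arrays; right, r of each gene with the main axis of within-group variation over all other features. Cd74 with H2-DMa (0.96) and H2-Aa with Ctss (0.97) form separate pairs with r of opposite sign to the axis, from 0.86 and 0.87 to -0.69 and -0.65.

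Nearest to the mean profile of H2-Ab1, H2-Eb1, H2-Aa and Cd74, again as deviations over 9 arrays, were Fip1l1 (r = 0.96), Ppara (0.87), Nktr (0.84), Heatr5a (0.84), Susd1 (0.83), Serpina4-ps1 (0.81), Gm1943 (0.80) and Dis3 (0.79). Over all features r had a median of -0.01 and a 5th to 95th percentile of -0.50 to 0.43. None of the 8 is a class II gene. The values depend on the profile, since Susd1 stood at 0.51 and Fip1l1 at 0.82 with Cd74 left out. The profile is a mean of genes that did not all vary together. Their pairs ran from r of -0.57 (H2-Aa with Cd74) to 0.84 (H2-Ab1 with H2-Eb1). By Spearman rho the 8 genes ran from 0.48 (Heatr5a) to 0.87 (Ppara).

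Other genes of antigen presentation were read from lists, and none passed the adjusted threshold in either direction, against 0.00865% of all features (limma adjusted p from 0.931 to 0.998 for the genes of these lists and of the cell type lists). At an unadjusted p under 0.05, a threshold that 1.64% of all features passed as higher and 4.09% in either direction, 4 of 13 Kupffer, 2 of 7 monocyte or neutrophil and 1 of 10 endothelial genes were higher, 1 of 10 endothelial and 2 of 10 stellate genes were lower, and 0 genes of the other lists passed. The lists were chosen with earlier results of these data known, so nothing is read from these counts. H2-Oa and H2-Ob, which form the DM inhibitor DO, and H2-Ea, which is silent in this strain, were detected on no array, and H2-Eb2 differed by 0.15 ± 0.37 (SE), or -0.18 without Etanercept 4. Of 11 compared genes of endosomal antigen processing, 6 were higher, with a median of 0.24 (-0.20 with median scaling, where all features shifted by -0.26). Among them were Napsa, an aspartic protease (0.43 ± 0.21, SE), Marchf1, a ubiquitin ligase that removes class II from the surface (0.53 ± 0.29, SE), and the protease gene Ctsb (0.24 ± 0.21, SE; 0.13 without Etanercept 4).

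Of the factors that act on class II promoters or carry interferon γ signals, 10 were compared and 5 were higher, with a median of 0.01. Irf1, an interferon-induced activator of Ciita, differed by -0.58 ± 0.34 (SE), the NF-Y subunit gene Nfyb by -0.27 ± 0.23 (SE), and Irf8 by -0.28 ± 0.36 (SE), which turned to 0.04 without Etanercept 4. These 3 had the smallest p of the list. Ifng, Rfx5 and Nfya were detected on no array. The median of 5 costimulation genes was 0.04, with Cd86 at 0.47 ± 0.26 (SE), Cd274 at 0.14 and Cd40 at -0.06 (0.31, 0.06 and -0.02 without Etanercept 4). MHC class I presentation genes had a median of -0.24, with 4 of 16 higher, and Tap2, Pdia3 and Psmb9 stood at -0.63, -0.54 and -0.51 (-0.33, -0.27 and -0.49 without Etanercept 4).

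Markers of the cells that can carry class II were read in the same arrays. In a whole liver, more cells of a type and more RNA per cell cannot be told apart. Of 13 compared Kupffer cell markers, 12 were higher and none passed, with a median of 0.48 (0.10 with median scaling, where all features shifted by -0.26). Marco, a scavenger receptor, differed by 1.10 ± 0.35 (SE), Timd4, a receptor for dying cells, by 0.87 ± 0.34 (SE), and Vsig4, a complement receptor, by 0.64 ± 0.22 (SE). The summed signal of the list ran from 12699 to 15633 in Control and from 14838 to 19542 in Etanercept livers, and 1 of its genes, Cd5l, was detected nowhere. Such sums, here and below, are of normalized signals before the log2 step, not of raw intensity units.

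All 7 compared monocyte and neutrophil markers were higher, with a median of 0.36 (0.04 with surgery day as a block, from days 1, 2 and 5 alone). Their sums were 1360 to 1920 in Control and 1740 to 3525 in Etanercept livers. Lyz2, lysozyme, differed by 1.21 ± 0.49 (SE), Chil3 by 0.94 ± 0.35 (SE) and Plac8 by 0.37 ± 0.29 (SE), while Ccr2, Itgam and Cx3cr1 were detected on no array. The part of these cells in the class II differences was not tested.

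Lymphocyte and dendritic cell markers lay at or near background. Of the B cell list, 9 of 12 genes had a probe and none was detected on 4 arrays. Its sums were 203 to 219 in Control and 215 to 264 in Etanercept livers, and Ms4a1, Cd22, Blk, Pax5, Blnk and Cr2 were detected nowhere. The B cell gene Cd79b was detected by its probe ILMN_2610822 on 0 Control and 3 Etanercept arrays. Raw signals of that probe were 101 to 124 intensity units in Control and 88.7 to 143 in Etanercept livers. Of the dendritic list 4 genes were compared and all were higher (median 0.20), with Ccr7 at 0.56 ± 0.40 (SE), Siglech at 0.30 ± 0.27 (SE) and Fscn1 at 0.11 ± 0.26 (SE). Without Etanercept 4 these stood at 0.20, 0.13 and 0.24. Its sums were 322 to 366 and 335 to 443, and Itgax, Flt3, Xcr1 and Cd209a were detected nowhere. The dendritic cell marker Clec9a, detected on too few arrays to be compared, went the other way. Its probe ILMN_1237681 was detected on 3 Control and 0 Etanercept arrays. Raw signals of that probe were 109 to 147 intensity units in Control and 85.5 to 123 in Etanercept livers. In the T and NK cell list only Cd3e was compared (0.17 ± 0.24, SE), 10 genes were detected nowhere, and the sums were 275 to 284 and 273 to 299.

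Of 10 sinusoidal endothelial markers 6 were higher (median 0.10), with Lyve1 at 1.29 ± 0.60 (SE), Cdh5 at 0.76 ± 0.31 (SE) and Fcgr2b at -0.83 ± 0.32 (SE). Their sums overlapped, at 6659 to 10131 in Control and 6065 to 9325 in Etanercept livers. Stellate cell and fibroblast markers were higher in 3 of 10 (median -0.26), with Lrat at -1.01, Hgf at -0.96 and Lum at -0.40. The bile duct markers Sox9 and Krt7 stood at 0.70 and 0.27 (0.58 and 0.03 without Etanercept 4), with Krt19 and Epcam detected nowhere. Hepatocyte markers, which check the tissue, all passed the detection filter, with sums of 119547 to 161535 in Control and 110991 to 147255 in Etanercept livers. Of these 4 of 12 were higher (median -0.14), and Apoa1, Pck1 and Trf stood at -0.31, -1.21 and -0.51 (-0.25, -1.61 and 0.00 without Etanercept 4).

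**Figure D5:**
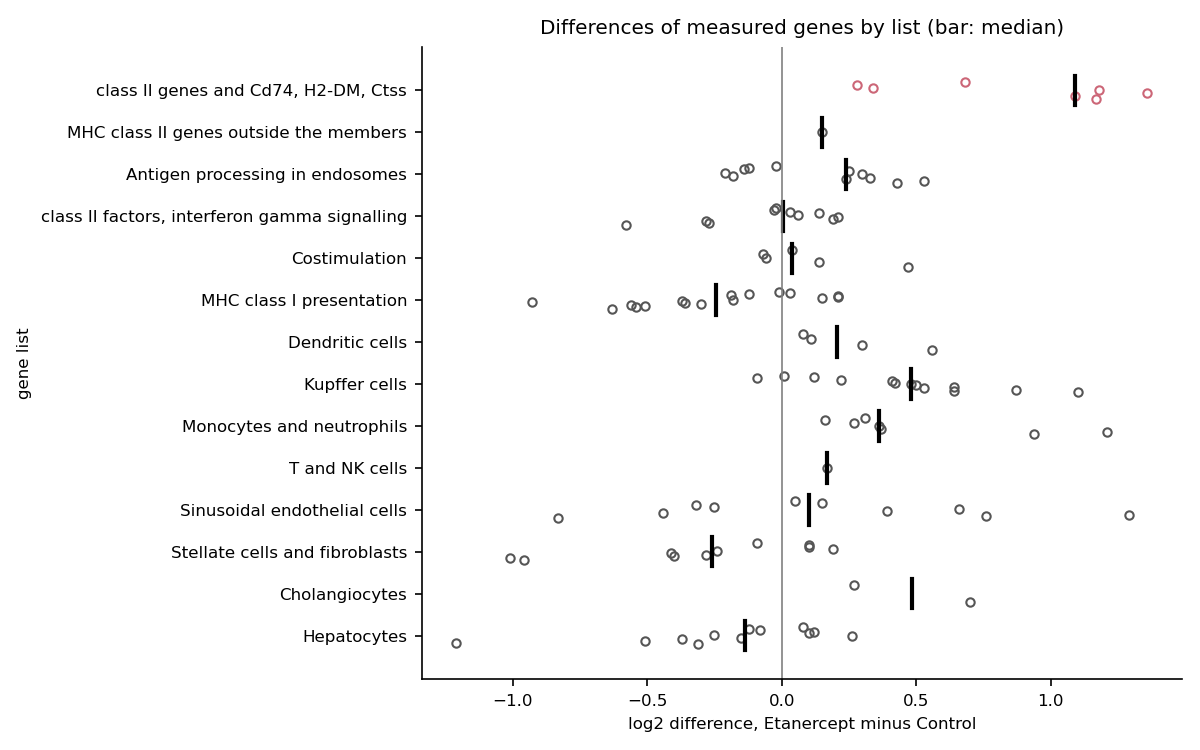
Log2 difference, Etanercept minus Control, of each compared gene (point) by list, with the list median as a bar. The class II genes, which were chosen on this difference, have a median of 1.09, and the medians of the other lists lie between -0.26 and 0.48.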

How the data were processed

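The deposited non-normalized file holds, for 9 arrays of 45281 probes, an average signal (intensity) with its detection p-value, per the file headers. The authors' normalized values, by their range on a log2 scale, were an alternative; Partek is the tool named in the submitters' processing notes, the steps are not given in the sources used here, and all 27 value columns were used. Raw signals were background-corrected with limma neqc (negative controls inferred from the detection p, offset 16), quantile-normalized and log2-transformed. A probe needed detection (p under 0.05) on 4 or more arrays (15687 passed), and the probe with the highest mean stood for a gene, which left 11559 features (9319 with a symbol). Symbols came from the platform annotation: 34885 probes had 1 symbol, 18 several and 10378 none, and 34807 matched RefSeq (GRCm38.p6) by Entrez gene ID.

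The group difference was fitted in limma with lmFit and eBayes, two-sided and without covariates, and probe standard errors came from a fit over all kept probes. The genes and lists were chosen with earlier results of these data known. Named were the 9 genes and their probes, up to 3 genes a list with the smallest p, and the 8 genes nearest to the class II profile. Replicate numbers pair nothing, but the labels' surgery day numbers join arrays across groups on 3 days. Same-day deviations from the group means correlated across features at 0.17 (day 1), -0.41 (day 2) and -0.56 (day 5), and at 0.34 for the Etanercept livers of day 4. Day served as the block of an alternative, though these values were negative on days 2 and 5. It entered as a fixed term, so that group difference rests on days 1, 2 and 5, which held both groups. Control 3 and Etanercept 2 and 5 do not enter it, and the dim Etanercept 4 does. The alternatives were other normalizations, filters, probes, variance models, slide, day and each array left out. Planted differences in simulated data were used to check the fit. Versions were 4.3.3 for R, 3.58.1 for limma and 3.11.15 for Python.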

Additional observations from a re-analysis of the deposited data

Results flagged for a closer look

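In 24 sets of values, 1 for each compared class II probe in each group, 1 liver stood apart by Dixon's criterion, and chance alone sets apart about 1 in 20. For the H2-DMb1 probe ILMN_1244977, Control 1 read 5.13 on the log2 scale while the other Control livers read 5.29 to 5.32. The probe is close to background in all 4 of these livers, with detection p from 0.0139 to 0.0353.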

How the results depend on the processing

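The 12 probes were recomputed under the alternatives, which gave 293 differences: 261 moved by less than the replicate SD in the same direction, 17 moved further and 15 changed sign. The H2-Ab1 probes ILMN_1226525 and ILMN_2913716 and the H2-Eb1 probe kept their sign in all. Within surgery day 1 the sign changed for H2-Ab1 ILMN_2631423 (-0.05), H2-Aa (-0.21), Cd74 ILMN_1247832 (-0.13), H2-DMa ILMN_2777769 (-0.17), H2-DMb1 (-0.30) and Ctss (-0.61). Within day 2 it changed for H2-Ab1 ILMN_2631423 (-1.82), Cd74 ILMN_1221817 (-1.58), ILMN_1247832 (-0.38) and ILMN_3089584 (-0.27), H2-DMa ILMN_2777769 (-0.72) and ILMN_2866856 (-0.71), and H2-DMb1 (-0.14). H2-DMa ILMN_2777769 stood at -0.01 in the authors' values and with day as a replicate block. The class II median of 1.09 was 0.71 with median scaling, 0.69 without background correction, 0.61 in the authors' values, 0.68 without the detection filter (9 genes), 0.76 over single probes, 0.02 within day 1, and 0.96 to 1.15 with an array left out. The 2 genes without overlap were 0 with median scaling and 4 on slide 1 alone, where 0.104% and 12.2% of all features had no overlap in that direction (0.329% over all arrays).

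The 1 feature past the threshold was 0 with median scaling, with day as a replicate block (175 at an unadjusted p under 0.05), with slide as a term, on either slide alone and with every probe tested on its own. It was 10 with array quality weights (weight 0.142 for Etanercept 4 and 4.92 for Etanercept 5), and 1071 in the authors' values, with 16 genes of the other lists among them where no other setting called any. The 1071 and the 16 are not read as results, since that fit does not count the day terms already removed. The number past the threshold was 0 to 4 with an array left out, and 4 without Etanercept 4, also when the arrays were renormalized without it. The r of H2-Ab1 and H2-Aa (-0.19) was 0.40 in the authors' values, 0.66 on raw log2 signals, 0.54 with median scaling, 0.03 with the probe ILMN_2913716, 0.14 without Etanercept 2 and 0.15 without Etanercept 4, and ran from -0.46 to 0.15 with an array left out. The causes were not tested. Dim signal limits H2-DMa, H2-DMb1, H2-DMb2 and Ciita most. The renormalized fit, the pair relations under other settings and the array axis were chosen after seeing the data.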
